A study of Mus musculus with 24 samples.

Results

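Wild-type (WT) primary embryonic fibroblasts of the mouse (MEFs, the adherent cells that dissociated embryos give in a dish) were compared between day 36 of culture, passage 12, and day 33, passage 11. The strain is given as C57B1/6 in the labels. The cells had been passaged serially under 20% oxygen, in a study of the DNA sensor cGAS and senescence, and RNA from whole cultures had been made into stranded mRNA libraries. The measured genes were chosen by level: 11688 of the 45706 genes in the gene table reached 5 CPM (the gene's counts as parts of a library total scaled across the libraries) in the day 36 or the day 33 library. Beside them stand WT cells of day 42, passage 14, and cGAS knockout (KO) MEFs of the same labelled strain and of days 33, 36 and 42, passages 11, 12 and 14. The labels name 4 samples for each genotype and day. Their columns agreed within sampling noise (mean chi-square per degree of freedom 0.840 for WT day 36 over 13439 genes and 0.833 for WT day 33 over 13738 genes), while single columns of the 2 days differed by 11.6 to 11.9 on the same scale. The 4 columns of a day were therefore summed and counted as 1 sample, and no p-value is given for day 36 against day 33 within WT. Nothing in the labels says whether the days come from separate cultures or which embryos the cells came from. Intervals given with folds are 95% intervals that cover counting error only.

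Cultured MEFs divide for a limited number of passages in ordinary air and then slow down or senesce, a lasting arrest with enlarged cells, raised cell cycle inhibitors and secretion of cytokines, chemokines and proteases. cGAS binds DNA in the cytosol and signals through STING to interferon and inflammatory genes. MEF cultures are mixtures: fibroblasts from many regions of the embryo grow beside smaller numbers of other embryonic cells, and the regional origin of a fibroblast is kept in its homeobox and other patterning factors. In such bulk samples, fewer cells of a type and less RNA per cell cannot be told apart.

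The summed libraries held 47091985 counts on day 36 and 48716880 on day 33, and 2.38 and 1.88% of them came from mitochondrially encoded genes. The labelled cell type fitted its markers. Col1a1, the main chain of type I collagen, was at 9800 CPM on day 36 and 9263 CPM on day 33, the intermediate filament gene Vim at 5331 CPM on day 36 and 5330 CPM on day 33, and the surface marker Thy1 at 1082 CPM on day 36 and 1492 CPM on day 33. Mb21d1 (mm10, as the gene table gives it: chromosome 9, 78430524 to 78443237), which encodes cGAS, was just under the 5 CPM minimum at 4.1 CPM on day 36 and 4.82 CPM on day 33 in WT. The KO libraries had 0 CPM of it on day 36 and 0.241 CPM on day 33.

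Most genes were at nearly the same level on both days. Differences are log2 CPM of day 36 minus day 33 with a prior count of 2, so that 1 stands for 2-fold and a positive value for a higher level on day 36. The median difference over the 11688 genes was -0.01, with 5th and 95th percentiles of -0.43 and 0.31. At least 2-fold higher on day 36 were 37 genes (0.317%), and at least 2-fold lower were 117 (1%), together 1.32%. Between neighbouring days elsewhere in the series, 6.85% of genes differed 2-fold between WT day 42 and WT day 36, 3.45% between KO day 36 and KO day 33, and 0.915% between KO day 42 and KO day 36. Of the 37 higher genes 14 passed the level minimum only through day 36, and of the 117 lower genes 56 passed only through day 33, so such genes had to differ. All 154 genes had at least 281 counts over both days. Beyond the genes taken by rule, list members given as examples were chosen after their values were seen. The genes just inside the minimum were Erdr1, Myl10 and Zbtb14, each at 5 CPM in its higher library, with differences of 0.22, 0.11 and 0.03. Just outside were Alkbh4, Mbnl3 and Ovca2 at 4.99 CPM, with differences of -0.23, -0.47 and -0.17. Gene length and the difference had a Spearman rho of -0.141 across the 11688 genes, given as a description because genes share both libraries.

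**Figure D1:**
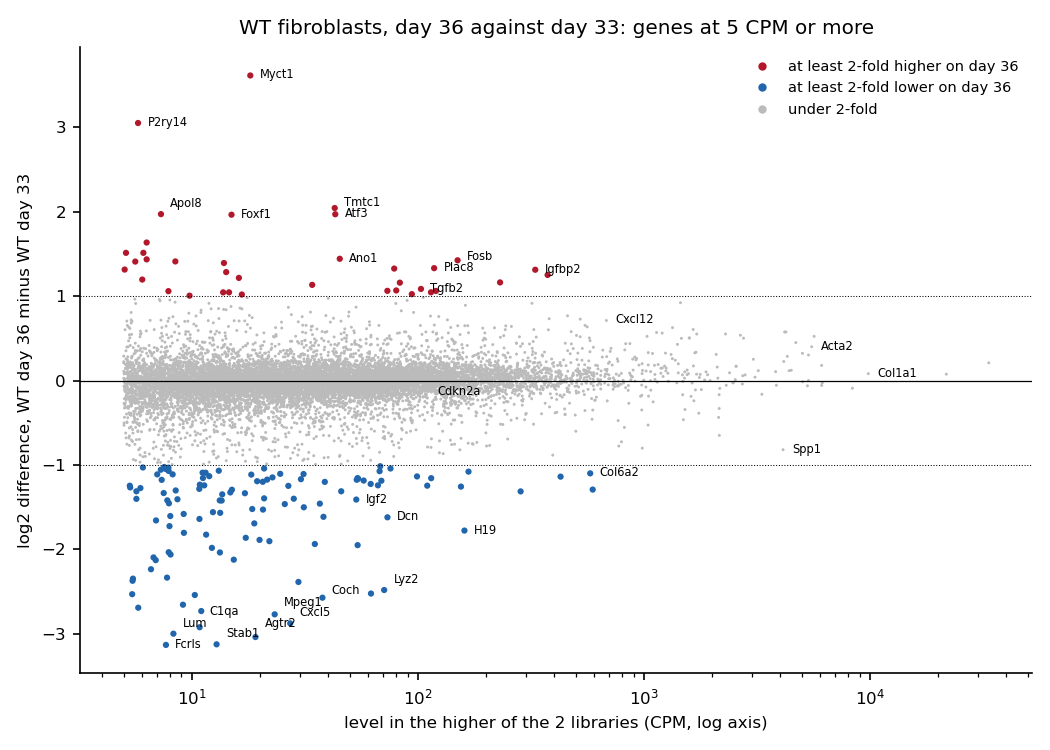
Level of each of the 11688 genes in the higher of the WT day 36 and WT day 33 libraries (horizontal, CPM, log axis) against its log2 difference, day 36 minus day 33 (vertical). Each point is 1 gene, dotted lines mark 2-fold, and the 37 higher and 117 lower genes are coloured. Most of the points past 2-fold lie in the lower part of the range of levels, and Col1a1, Acta2 and Cdkn2a lie near 0.

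Genes of cell division and growth arrest stayed under 2-fold between the days. None of the 40 measured mitosis and spindle genes differed 2-fold, and their differences ran from -0.18 to 0.15 with a median of 0.03. None of 34 measured DNA replication genes did, although 28 of 34 were below 0 (median -0.13), against 52.4% of all genes. The proliferation antigen gene Mki67 was at 161 CPM on day 36 and 149.5 CPM on day 33. Of 18 measured senescence and cell cycle inhibitor genes, 0 differed 2-fold (median -0.05, from -0.28 to 0.52). The summed level of the list was 7450 CPM on day 36 and 5804 CPM on day 33. Cdkn2a, the locus of the inhibitors p16Ink4a and p19Arf, stood at 101 CPM on day 36 and 110.4 CPM on day 33, and its neighbour Cdkn2b, which encodes p15Ink4b, at 55.8 CPM on day 36 and 62 CPM on day 33. Cdkn1a, the p53 target that encodes p21, was at 595 CPM on day 36 and 589 CPM on day 33. Cdkn1b, which encodes p27, was at 38.8 CPM on day 36 and 32.8 CPM on day 33, 1.18-fold higher (counting interval 1.1 to 1.27). Of 32 measured p53 target genes 0 differed 2-fold and 25 were below 0, against 52.4% of all genes (median -0.10, from -0.52 to 0.65). Trp53 itself was at 70 CPM on day 36 and 72.5 CPM on day 33, and Mdm2, which degrades p53, at 379 CPM on day 36 and 408 CPM on day 33. Lmnb1, a nuclear lamin that is lost in senescent cells, was at 45.3 CPM on day 36 and 48 CPM on day 33. The chromatin proteins Hmga1 and Hmga2 were at 261 CPM on day 36 against 276 CPM on day 33 and 345 CPM on day 36 against 385 CPM on day 33, and both were lower on day 42, at 88.1 and 154 CPM. The growth regulator Myc was at 85.8 CPM on day 36 and 96.3 CPM on day 33. None of these genes reached 2-fold between the days.

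The list with the median farthest from 0 was that of macrophage markers, genes of the phagocytes that engulf debris in the embryo. Of its 32 genes, 31 were lower on day 36 and 1 was higher, by less than 2-fold. Only 14 of the 32 reached 5 CPM, 10 of those only through day 33, so the 12 of 14 past 2-fold are a description beside the background of 1%. Taken without that minimum, 26 of the 32 were at least 2-fold lower, with a median difference of -2.13. After Gpnmb, lysozyme was the most abundant: Lyz2 was at 12.7 CPM on day 36 and 70.9 CPM on day 33 and Lyz1 at 10.7 CPM on day 36 and 62 CPM on day 33, 2 near-identical neighbours on chromosome 10 between which reads may have been split. Mpeg1, a pore-forming protein of phagocytes, was at 3.36 CPM on day 36 and 23.2 CPM on day 33, 6.91-fold lower (counting interval 5.81 to 8.27). The complement subunits C1qa, C1qb and C1qc, which sit side by side on chromosome 4 between 136880127 and 136898803 and are made by macrophages, were at 1.38, 1.61 and 1.41 CPM on day 36 and at 10.8, 11 and 9.14 CPM on day 33. All 3 were therefore 6.5- to 7.83-fold lower.

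Other members of the list were lower as well. Laptm5, a lysosomal membrane protein of blood cells, was at 1.73 CPM on day 36 and 10.3 CPM on day 33, Adgre1, which encodes the F4/80 antigen, at 1.5 CPM on day 36 and 7.77 CPM on day 33, and the cysteine protease Ctss at 1.89 CPM on day 36 and 8.05 CPM on day 33. Csf1r, the receptor for the growth factor that macrophages depend on, was at 4.93 CPM on day 36 and 13.3 CPM on day 33, 2.69-fold lower (counting interval 2.3 to 3.16). Spi1, which encodes the macrophage transcription factor PU.1, was detected at 8 counts on day 36 and 41 on day 33. None of the 32 markers was at 0 in either library. The pan-leukocyte gene Ptprc was at 2.37 CPM on day 36 against 4.43 CPM on day 33, Coro1a at 3 CPM on day 36 against 4.47 CPM on day 33, Cd14 at 2.93 CPM on day 36 against 4.02 CPM on day 33 and Cd53 at 10.9 CPM on day 36 against 13 CPM on day 33, smaller differences than for the genes above. Gpnmb, which some fibroblasts also make, was at 98.1 CPM on day 36 and 140.3 CPM on day 33 and held a large share of the list's total. The summed level of the 32 markers was 174 CPM on day 36 and 451 CPM on day 33, and without Gpnmb 75.8 and 310.5 CPM. Over the 3 WT days the sum without Gpnmb was 310.5, 75.8 and 32.9 CPM on days 33, 36 and 42. In KO it was 18.7 CPM on day 36 and 149.7 CPM on day 33, and all 32 markers were lower on day 36.

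Among the lower genes outside the list stood 2 of the same kind. Fcrls, an Fc receptor-like protein of mouse macrophages and microglia, was at 0.83 CPM on day 36 and 7.68 CPM on day 33, and Stab1, a scavenger receptor of tissue macrophages, at 1.43 CPM on day 36 and 12.9 CPM on day 33. They were 9.26-fold lower (counting interval 6.56 to 13.4) and 9.01-fold lower (counting interval 6.93 to 11.9) and had the lowest differences among the genes named by rule. Of the markers of further cell types, 0 of 12 erythroid, lymphoid and other blood markers reached 5 CPM. The endothelial list had 3 of 15 measured and summed to 126.6 CPM on day 36 and 172.5 CPM on day 33. Its measured genes were Flt1, Eng and Kdr, at 70.9, 35.7 and 13.2 CPM on day 36 and 129, 23.4 and 10.8 CPM on day 33, while Cdh5 was at 0.184 CPM on day 36 against 0.195 CPM on day 33 and Pecam1 at 0.0922 CPM on day 36 against 0.152 CPM on day 33. Neural and glial markers had 5 of 16 measured and summed to 91.9 CPM on day 36 and 105.8 CPM on day 33, mostly from Tubb3 at 55.1 CPM on day 36 against 53.9 CPM on day 33. Epithelial and desmosome genes had 7 of 26 measured and summed to 185 CPM on day 36 and 175 CPM on day 33.

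PU.1 binds purine-rich sites, and the short form GAGGAAG was searched on both strands in the 250 bases before the start of each gene (RefSeq, build GRCm38.p6). It was present before 7 of the 22 macrophage list genes with a window (31.8%), against 10.2% of all 18413 windows and 11.8% of the 85 windows of the lower genes. The windows of 4 list members are shown because they hold such a match, with the match or its reverse complement in capitals. Bases that belong to the gene as the gene table gives it are left out. A match is a description and does not show that a factor binds there.
C1qc, chr4:136893066-136893164 (minus strand): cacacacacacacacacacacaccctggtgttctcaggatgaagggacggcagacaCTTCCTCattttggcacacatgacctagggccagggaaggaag
Itgam, chr7:128062390-128062637 (plus strand): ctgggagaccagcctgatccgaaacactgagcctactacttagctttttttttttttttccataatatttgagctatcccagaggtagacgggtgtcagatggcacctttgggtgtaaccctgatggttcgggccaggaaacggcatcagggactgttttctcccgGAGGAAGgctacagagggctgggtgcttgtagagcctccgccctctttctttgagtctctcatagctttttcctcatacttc
Mrc1, chr2:14229164-14229389 (plus strand): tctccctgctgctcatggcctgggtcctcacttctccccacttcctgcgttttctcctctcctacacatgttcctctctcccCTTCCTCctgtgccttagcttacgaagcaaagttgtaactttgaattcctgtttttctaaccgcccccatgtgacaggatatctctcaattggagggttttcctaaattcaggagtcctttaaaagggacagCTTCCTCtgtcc
Trem2, chr17:48346151-48346398 (plus strand): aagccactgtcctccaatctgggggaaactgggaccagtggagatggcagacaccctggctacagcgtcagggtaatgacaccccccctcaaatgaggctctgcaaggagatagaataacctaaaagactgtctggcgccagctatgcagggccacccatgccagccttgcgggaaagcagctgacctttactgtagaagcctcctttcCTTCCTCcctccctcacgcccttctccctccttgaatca

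The 4 genes are C1qc, the integrin gene Itgam that encodes CD11b, the mannose receptor gene Mrc1 and the lipid receptor gene Trem2. Itgam was at 0.991 CPM on day 36 and 4.91 CPM on day 33, Mrc1 at 0.783 CPM on day 36 and 4.65 CPM on day 33 and Trem2 at 0.576 CPM on day 36 and 2.84 CPM on day 33. All 4 were therefore lower on day 36, with differences of -2.66, -2.25, -2.49 and -2.20, and Itgam, Mrc1 and Trem2 lay under the 5 CPM minimum on both days.

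**Figure D2:**
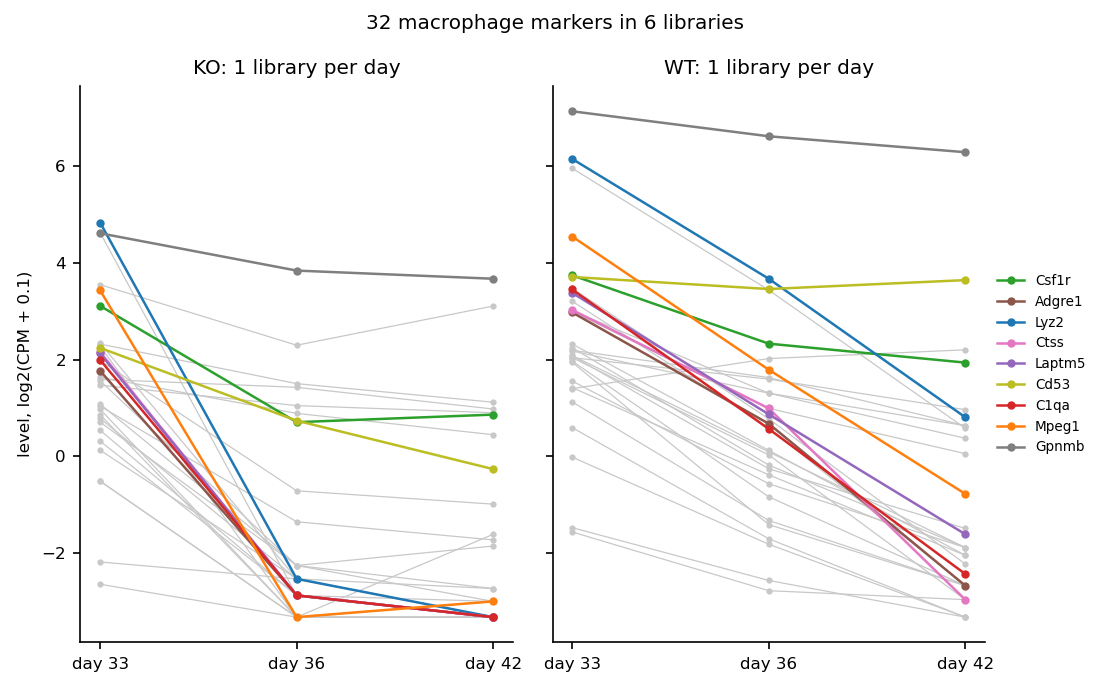
Levels of the 32 macrophage markers as log2 of CPM plus 0.1 (vertical) in the libraries of days 33, 36 and 42, in KO (left) and WT (right); each line is 1 gene and each point 1 library, with 9 genes coloured. In WT Lyz2, Mpeg1 and C1qa are highest on day 33 and lowest on day 42, while Gpnmb and Cd53 stay within 2-fold over the 3 days.

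Chemokines, the secreted guides of leukocytes, were lower on day 36 for most measured members. Of the 26 on the list 8 were measured. Of these 8, 3 were at least 2-fold lower, against 1% of all genes, 0 were higher, against 0.317%, and the median was -0.84. Those 3 are neutrophil chemokines that lie within 1 stretch of chromosome 5 between 90759358 and 90893115: Cxcl5 was at 3.66 CPM on day 36 and 27.2 CPM on day 33, Ppbp at 9.1 CPM on day 36 and 35 CPM on day 33 and Cxcl1 at 6.11 CPM on day 36 and 15 CPM on day 33. Cxcl5, which reached 5 CPM only through day 33, was 7.44-fold lower (counting interval 6.3 to 8.83). Without the 5 CPM minimum, 25 chemokines had at least 3 counts, of which 9 were at least 2-fold lower and 1 higher. The monocyte chemokines Ccl2 and Ccl7 were at 86.8 CPM on day 36 against 153 CPM on day 33 and 68.7 CPM on day 36 against 124 CPM on day 33 (differences -0.82 and -0.86). Cxcl12, which retains blood stem cells in their niche, was at 681 CPM on day 36 and 416 CPM on day 33, a difference of 0.71 in the other direction, and Cx3cl1 was at 35.5 CPM on day 36 against 25.6 CPM on day 33. The macrophage markers moved with these genes (31 of 32 lower, summed level without Gpnmb 75.8 CPM on day 36 and 310.5 CPM on day 33), and their part in the chemokine levels was not tested.

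No interferon-stimulated gene among 20 measured differed 2-fold, but 18 of the 20 were below 0, against 52.4% of all genes, with a median of -0.41. Beside this list too, 31 of 32 macrophage markers were lower, and their part in it was not tested. The transcription factor Irf1 was at 7 CPM on day 36 against 12.5 CPM on day 33, Stat2, which carries the interferon signal, at 16.8 CPM on day 36 against 23.4 CPM on day 33, the ubiquitin ligase Trim25 at 44.1 CPM on day 36 against 71.3 CPM on day 33, and the antiviral gene Ifit3 at 4.7 CPM on day 36 against 7.84 CPM on day 33. Ifit3 and Ifit3b are near-identical copies and their values are uncertain. Irgm1, an immunity-related GTPase, went the other way with 88.4 CPM on day 36 against 59.3 CPM on day 33. Isg15 had 29 counts on day 36 and 48 on day 33, Cxcl10 had 10 and 16 on these days, and Ifnb1, which encodes interferon beta, had 0 on both days, which allows up to 3 counts. Of the 46 genes of this list, 44 had at least 3 counts, of which 36 were below 0 and 4 at least 2-fold lower. Those 4 were Oas1a, Oas2, Psmb9 and Zbp1, named after their values were seen, with 2, 3, 5 and 3 counts on day 36 and 8, 9, 17 and 15 on day 33. In the RefSeq windows the interferon response element, searched on both strands as a pair of GAAA repeats with 2 bases between them, stood before 13 of 33 list genes (39.4%) and before 2.97% of all. Genes of the cGAS-STING pathway were level, with 0 of 19 measured past 2-fold and a median of -0.03. Tmem173, which encodes STING, was at 32.8 CPM on day 36 against 40.1 CPM on day 33, the kinase gene Tbk1 at 46.4 CPM on day 36 against 47.2 CPM on day 33 and the transcription factor gene Irf3 at 29 CPM on day 36 against 32.6 CPM on day 33. Enpp1, which degrades the messenger cGAMP, was at 16.7 CPM on day 36 against 26 CPM on day 33 (difference -0.63).

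Most complement genes outside the C1q subunits were lower without reaching 2-fold: 0 of 10 measured passed it and 8 of 10 were below 0 (median -0.44), against 52.4% of all genes. Below the minimum, C3, C4a and C4b, named after their values were seen, were at least 2-fold lower, with 20, 15 and 14 counts on day 36 and 82, 45 and 46 on day 33; C4a and C4b are near-identical copies. The part of the macrophage markers, 31 of 32 lower, in these levels was not tested. Serping1, the inhibitor of the first complement proteases, was at 6.8 CPM on day 36 against 12.5 CPM on day 33, Cd55, which protects cells from complement, at 21.3 CPM on day 36 against 40.1 CPM on day 33, and the proteases C1ra and C1s1 at 7.54 CPM on day 36 against 10.2 CPM on day 33 and 6.15 CPM on day 36 against 8.21 CPM on day 33. The subunits C1qa, C1qb and C1qc belong to the macrophage list and are not counted here. Of 36 measured lysosomal genes 1, Ctss, was 2-fold lower, against 1% of all genes, and it is also a macrophage marker. The other lysosomal genes stayed under 2-fold, with a highest difference of 0.64 and a list median of -0.03. The cathepsins Ctsb and Ctsd were at 847 CPM on day 36 against 964 CPM on day 33 and 1561 CPM on day 36 against 1686 CPM on day 33.

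Immediate early genes, which are induced within minutes by serum, growth factors or stress, were mostly higher on day 36. Of 31 measured, 25 were above 0 (median 0.30), against 47.6% of all genes, and 2 were at least 2-fold higher, against 0.317%. Fosb, which encodes an AP-1 subunit, was at 149.7 CPM on day 36 and 55.8 CPM on day 33, 2.69-fold higher (counting interval 2.56 to 2.81). Atf3, a stress-induced transcription factor, was at 43.1 CPM on day 36 and 11 CPM on day 33, 3.93-fold higher (counting interval 3.56 to 4.34). Fos was at 191 CPM on day 36 against 151 CPM on day 33, Junb at 161 CPM on day 36 against 103 CPM on day 33, the MAP kinase phosphatase genes Dusp1 and Dusp5 at 259 CPM on day 36 against 166 CPM on day 33 and 102 CPM on day 36 against 65.2 CPM on day 33, and the nuclear receptor gene Nr4a1 at 194 CPM on day 36 against 139 CPM on day 33. Egr1 was at 307 CPM on day 36 against 255 CPM on day 33, Jun at 138 CPM on day 36 against 135 CPM on day 33 and Fosl1 at 43 CPM on day 36 against 45.5 CPM on day 33, with differences of 0.27, 0.03 and -0.08. Over days 33, 36 and 42 the summed level of the list was 3983, 4798 and 2207 CPM. On day 42 Fosb was at 2, Fos at 9.04, Atf3 at 3.31 and Junb at 17.9 CPM, and Egr1, Jun and Nr4a1 were at 95.1, 69.7 and 32.7 CPM. In KO the same list had a median of -0.43 for day 36 against day 33.

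Serum response factor acts on immediate early and contractile genes through the CArG box, and CREB-type factors through the site TGACGTC. Searched on both strands, the CArG box was found before 3 of 26 immediate early genes (11.5%), 3 of 22 contractile genes (13.6%) and 1.28% of all 18413 windows. The site TGACGTC was found before 4 of the 26 (15.4%), 3.45% of all and 5.18% of the windows of genes at 5 CPM or more. The AP-1 site TGANTCA, where N is any base, was found before 0 of the 26 and 6.28% of all. The windows of 3 immediate early genes and 2 contractile genes are shown, with CArG boxes in capitals for Dusp5, Zfp36, Myl9 and Vcl, and TGACGTC or its reverse complement in capitals for Dusp1. A marked stretch is longer where matches adjoin, as the 2 CArG boxes of Dusp5 do, or overlap on both strands, as in Dusp1.
Dusp5, chr19:53528895-53529106 (plus strand): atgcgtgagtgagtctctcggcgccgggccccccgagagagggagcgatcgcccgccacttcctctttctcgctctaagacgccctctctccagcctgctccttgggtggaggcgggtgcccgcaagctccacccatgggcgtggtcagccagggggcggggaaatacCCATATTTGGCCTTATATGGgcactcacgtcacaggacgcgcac
Zfp36, chr7:28379256-28379478 (minus strand): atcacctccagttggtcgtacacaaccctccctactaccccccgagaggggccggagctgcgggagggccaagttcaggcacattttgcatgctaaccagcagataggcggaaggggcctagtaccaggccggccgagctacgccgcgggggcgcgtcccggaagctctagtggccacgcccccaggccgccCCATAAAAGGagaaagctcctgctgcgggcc
Dusp1, chr17:26508520-26508722 (minus strand): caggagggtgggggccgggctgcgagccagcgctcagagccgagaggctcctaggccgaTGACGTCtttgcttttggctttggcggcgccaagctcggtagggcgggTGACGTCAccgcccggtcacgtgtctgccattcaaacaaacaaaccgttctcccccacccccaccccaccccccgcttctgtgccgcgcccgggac
Myl9, chr2:156775214-156775417 (plus strand): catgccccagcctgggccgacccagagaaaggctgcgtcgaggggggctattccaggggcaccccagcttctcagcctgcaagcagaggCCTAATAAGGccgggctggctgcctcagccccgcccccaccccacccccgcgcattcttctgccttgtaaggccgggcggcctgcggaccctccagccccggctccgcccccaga
Vcl, chr14:20929148-20929397 (plus strand): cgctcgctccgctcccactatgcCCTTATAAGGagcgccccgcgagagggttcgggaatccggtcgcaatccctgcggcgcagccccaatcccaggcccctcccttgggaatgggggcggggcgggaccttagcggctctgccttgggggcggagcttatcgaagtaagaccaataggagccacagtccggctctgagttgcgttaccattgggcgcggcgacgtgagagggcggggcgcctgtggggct

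Dusp5 and Dusp1 were above day 33 by 0.65 and 0.64 on the log2 scale, and Zfp36, which destabilises cytokine mRNAs, was at 138 CPM on day 36 and 115 CPM on day 33, a difference of 0.26. None of the 3 reached 2-fold.

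Mitochondrially encoded transcripts were also higher, with 11 of 13 above 0, against 47.6% of all genes. Their median was 0.43 with a range from -0.11 to 0.58, and none was past 2-fold. mt-Co1, which encodes a subunit of cytochrome oxidase, was at 4237 CPM on day 36 and 2844 CPM on day 33, and mt-Nd1, of complex I, at 4683 CPM on day 36 and 3429 CPM on day 33. Nuclear genes of the respiratory chain differed little, with a median of 0.05, though 36 of 46 were above 0, against 47.6% of all genes. In KO the mitochondrial list moved the other way, with a median of -1.12. Rn18s-rs5, a locus that resembles ribosomal RNA and was named after its values were seen, was at 374 CPM on day 36 and 157 CPM on day 33. The part of RNA quality in these levels was not tested. The unfolded protein and integrated stress response list held 1 gene past 2-fold among 37, against 1.32% of all genes. It was again Atf3 (list median 0.05), and heat shock genes held 0 of 18 (median 0.04).

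Contractile and myofibroblast genes, which build the stress fibres of tense fibroblasts, were nearly all higher, by little. Of 25 measured, 24 were above 0, against 47.6% of all genes, and 0 were past 2-fold, with a median of 0.18. Acta2, which encodes smooth muscle actin, was at 5507 CPM on day 36 and 4173 CPM on day 33, 1.32-fold higher (counting interval 1.31 to 1.33). The other smooth muscle actin gene Actg2 was at 522 CPM on day 36 and 315 CPM on day 33 and calponin, encoded by Cnn1, at 522 CPM on day 36 and 364 CPM on day 33. Mylk, the kinase that activates myosin, was at 39.1 CPM on day 36 against 22.9 CPM on day 33, Tagln at 4296 CPM on day 36 against 3523 CPM on day 33, and the myosin light chain gene Myl9, whose window is shown above, at 714 CPM on day 36 against 548 CPM on day 33. Vcl, which links actin to adhesions, was at 1316 CPM on day 36 against 1063 CPM on day 33. Only Itga8 was below 0, at -0.01. In KO the list had a median of -0.17. Of 20 measured YAP and TEAD targets, 15 were above 0, against 47.6% of all genes (median 0.19). Tgfb2 was the 1 past 2-fold, against 1.32% of all genes. The part of tension in the levels of either list was not tested.

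**Figure D3:**
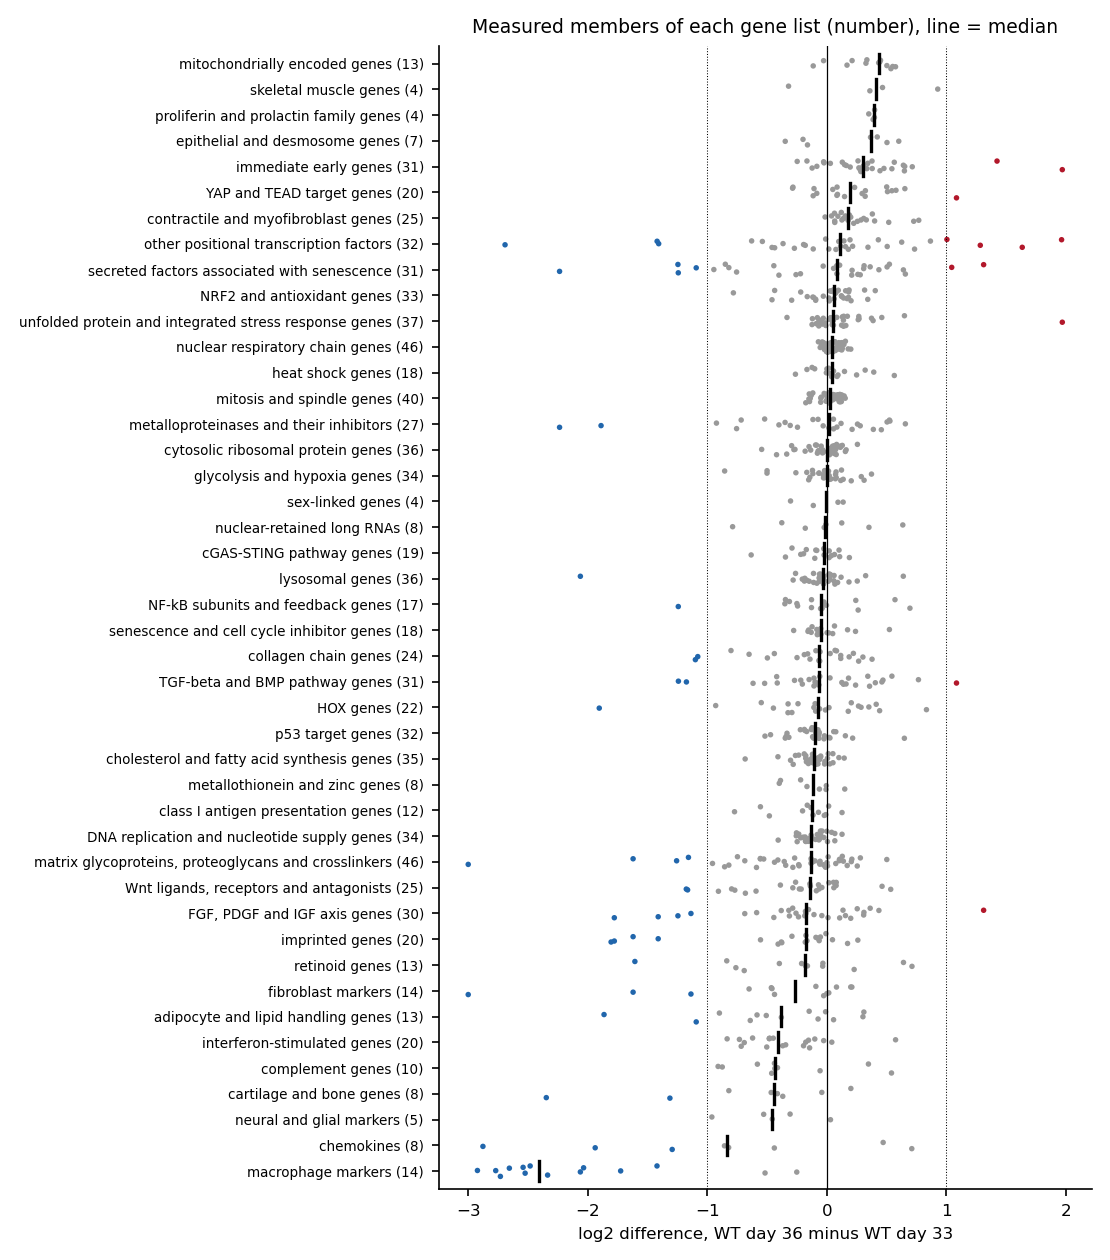
Log2 difference, WT day 36 minus WT day 33 (horizontal), of every measured member of 44 gene lists with 4 or more measured genes; each point is 1 gene, the black line is the list's median, dotted lines mark 2-fold, and points past 2-fold are red (higher) or blue (lower). Macrophage markers have the lowest median, -2.41, and mitochondrially encoded genes the highest, 0.43.

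Matrix genes of the fibroblast itself split into a level majority and a small lower group. Of 24 measured collagen chain genes 2 were at least 2-fold lower, against 1% of all genes, and 0 higher, against 0.317% (median -0.06). Col6a2, a chain of the beaded filament collagen VI, was at 269.5 CPM on day 36 and 578 CPM on day 33, and its partner chain Col6a1 at 563 CPM on day 36 against 981 CPM on day 33. Col18a1, of the basement membrane, was at 79.2 CPM on day 36 and 167 CPM on day 33. Col3a1 was at 1371 CPM on day 36 against 2151 CPM on day 33, and the chains Col1a1 and Col1a2 were level, at 0.08 and -0.09. Of 46 measured matrix glycoproteins, proteoglycans and crosslinkers 4 were lower, against 1% of all genes, and 0 higher, against 0.317% (median -0.13). Lum and Dcn, the small proteoglycans lumican and decorin that space collagen fibrils, lie next to each other on chromosome 10 between 97479498 and 97572703. Lum was at 0.991 CPM on day 36 and 8.29 CPM on day 33, 8.37-fold lower (counting interval 6.09 to 11.8). It reached 5 CPM only through day 33. Dcn was at 23.8 CPM on day 36 and 73.3 CPM on day 33, 3.08-fold lower (counting interval 2.87 to 3.3). The laminin chain Lama4 was at 64.8 CPM on day 36 and 155 CPM on day 33, and fibrillin 2, encoded by Fbn2, at 51.3 CPM on day 36 and 114 CPM on day 33. Osteopontin, encoded by Spp1, was at 2332 CPM on day 36 and 4115 CPM on day 33, and thrombospondin 1, encoded by Thbs1, at 21680 CPM on day 36 and 20580 CPM on day 33. Fibronectin, encoded by Fn1, was at 33410 CPM on day 36 against 28880 CPM on day 33. Lum, Dcn and Pdgfra, the receptor that marks mesenchymal cells, were the 3 of 14 fibroblast markers past 2-fold. All 3 were lower, against 1% of all genes. Pdgfra was at 45 CPM on day 36 and 99 CPM on day 33, while Vim, Twist1 and S100a4 were within 0.03 of 0.

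Growth factor and imprinted genes held some of the larger differences among abundant genes. H19, the maternally expressed long RNA, was at 46.8 CPM on day 36 and 160.5 CPM on day 33, 3.43-fold lower (counting interval 3.27 to 3.6). Its paternally expressed neighbour Igf2, the fetal growth factor, was at 20.1 CPM on day 36 and 53.4 CPM on day 33, 2.66-fold lower (counting interval 2.46 to 2.88). The 2 genes lie on chromosome 7 between 142575527 and 142666816. Mest, also paternally expressed, reached 5 CPM only through day 33, at 2.6 CPM on day 36 and 9.23 CPM on day 33. With Dcn, these were the 4 of 20 measured imprinted genes at least 2-fold lower, against 1% of all genes, 0 were higher, and 17 of 20 were below 0, against 52.4% (median -0.18). Dlk1 was at 43.8 CPM on day 36 against 57 CPM on day 33, Meg3 at 317 CPM on day 36 against 411 CPM on day 33 and Peg3 at 96.1 CPM on day 36 against 128 CPM on day 33. Of the 30 measured genes of the FGF, PDGF and IGF axis 1 was higher, against 0.317% of all genes, and 4 lower, against 1%. The IGF binding proteins went opposite ways: Igfbp2 was at 330.1 CPM on day 36 and 133 CPM on day 33, 2.48-fold higher (counting interval 2.41 to 2.56), and Igfbp3 at 46.3 CPM on day 36 and 109.9 CPM on day 33, 2.37-fold lower (counting interval 2.25 to 2.5). Igf1 was at 7.21 CPM on day 36 against 11.6 CPM on day 33, and the receptors Igf1r and Igf2r had differences of 0.01 and -0.17. The FGF receptor gene Fgfr1 was at 308 CPM on day 36 against 382 CPM on day 33, and Pdgfrb at 393 CPM on day 36 against 342 CPM on day 33.

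Several of these lower genes stood higher again on day 42. Over days 33, 36 and 42, H19 was at 160.5, 46.8 and 198 CPM, Igf2 at 53.4, 20.1 and 185, and Mest at 9.23, 2.6 and 90. Dcn was at 73.3, 23.8 and 169 CPM, Lum at 8.29, 0.991 and 21.1, and Col6a2 at 578, 269.5 and 844. In each of these 6 genes day 36 was the lowest of the 3 libraries and day 42 the highest. The macrophage genes were instead lowest on day 42: C1qa was at 10.8, 1.38 and 0.0855 CPM and Mpeg1 at 23.2, 3.36 and 0.485 CPM on the same days. Each day is 1 library, so these orders have no replicate check.

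**Figure D4:**
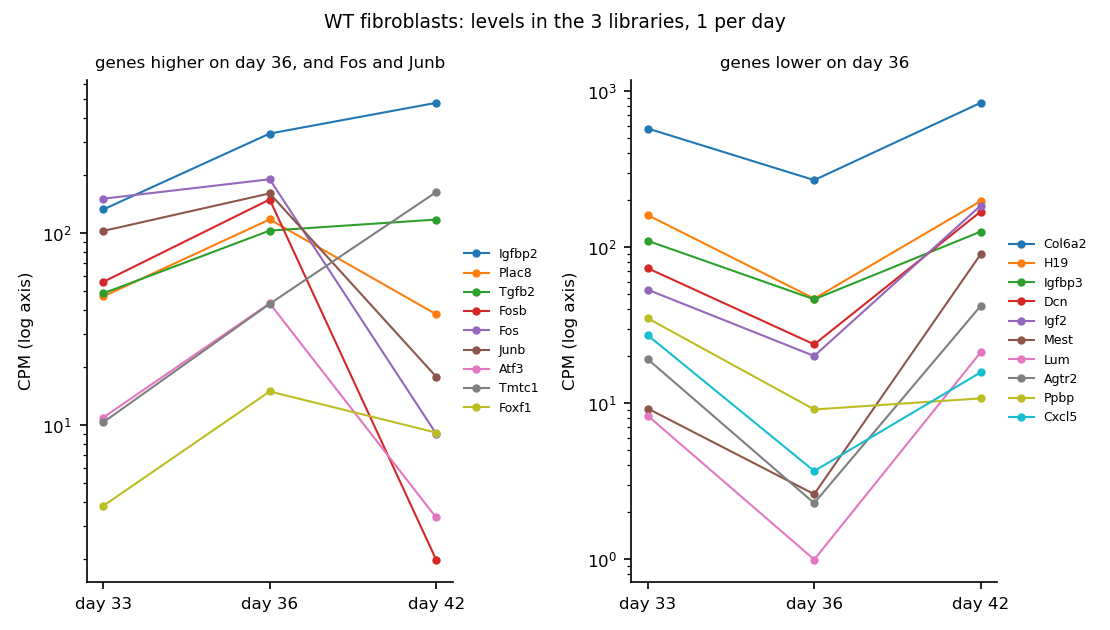
CPM (log axis) of 9 genes in the left panel and 10 genes in the right panel in the WT libraries of days 33, 36 and 42; each point is 1 library. Fosb, Fos, Junb and Atf3 are highest on day 36 and lowest on day 42, while H19, Igf2, Dcn, Lum, Mest and Agtr2 are lowest on day 36.

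Signalling genes of development moved in both directions. Of 31 measured TGF-beta and BMP genes 1 was higher, against 0.317% of all genes, and 2 lower, against 1% (median -0.07). The ligand Tgfb2 was at 103 CPM on day 36 and 48.6 CPM on day 33, 2.12-fold higher (counting interval 2.02 to 2.23), and Tgfb3 at 458 CPM on day 36 against 269 CPM on day 33. The co-receptor Tgfbr3 was at 28.1 CPM on day 36 and 66.5 CPM on day 33 and the ligand Bmp4 at 9.52 CPM on day 36 and 21.5 CPM on day 33. Of 25 measured Wnt genes 2 were lower, against 1% of all genes, and 0 higher (median -0.14). Lgr5, a receptor for R-spondins, was at 23.7 CPM on day 36 and 53.6 CPM on day 33. Sfrp1, a secreted Wnt antagonist, was at 24.2 CPM on day 36 and 54.4 CPM on day 33. The R-spondin gene Rspo2 was at 48.5 CPM on day 36 against 33.4 CPM on day 33 and Wnt5a at 164 CPM on day 36 against 193 CPM on day 33. Of 13 measured retinoid genes 1 was lower, against 1% of all genes. It was the retinoic acid responsive gene Rarres1, at 2.6 CPM on day 36 and 8.03 CPM on day 33. Rarres1 reached 5 CPM only through day 33. The retinoic acid binding protein gene Crabp1 was at 71 CPM on day 36 against 115 CPM on day 33.

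Positional transcription factors split in both directions. Of 32 measured factors outside the HOX family 4 were at least 2-fold higher, against 0.317% of all genes, and 3 lower, against 1%. Foxf1, a factor of gut and lung mesenchyme, was at 15 CPM on day 36 and 3.8 CPM on day 33, 3.94-fold higher (counting interval 3.33 to 4.69). Pax9, of the sclerotome and pharyngeal arches, was at 6.31 CPM on day 36 and 2 CPM on day 33. The other higher members, named after their values were seen, were Foxp2 at 14.2 CPM on day 36 against 5.8 CPM on day 33 and Pitx1, a hindlimb factor, at 9.77 CPM on day 36 against 4.84 CPM on day 33. Tfap2b, of neural crest and limb, was at 0.853 CPM on day 36 and 5.8 CPM on day 33, 6.8-fold lower (counting interval 4.81 to 9.87). The forelimb factor Tbx5 was at 2.88 CPM on day 36 and 7.79 CPM on day 33, and Tbx4, a hindlimb factor that was named after its values were seen, at 3.23 CPM on day 36 against 8.64 CPM on day 33. The hindlimb factors Pitx1 and Tbx4 thus stood on opposite sides. Foxf1, Pax9 and Pitx1 reached 5 CPM only through day 36, and Tfap2b, Tbx5 and Tbx4 only through day 33. The 4 higher and 3 lower factors are therefore a description beside the background. Taken without that minimum, 56 factors had at least 3 counts, of which 6 were at least 2-fold higher and 10 lower (median 0.00). Of 22 measured HOX genes, which record position along the body axis, 1 was 2-fold lower, against 1%, and 0 higher (median -0.08). Hoxd13, of the digits and genital region, was at 5.85 CPM on day 36 and 22 CPM on day 33, 3.76-fold lower (counting interval 3.28 to 4.34). Its neighbours Hoxd10, Hoxd11 and Hoxd12 lay below the 5 CPM minimum at 0.622, 0.599 and 1.08 CPM on day 36 and at 2.06, 2.34 and 2.41 CPM on day 33. Over the whole HOX list, 37 genes had at least 3 counts, of which 4 were at least 2-fold lower and 1 higher. Hoxa11 was at 11 CPM on day 36 against 6.14 CPM on day 33 and Hoxc8 at 17.1 CPM on day 36 against 32.6 CPM on day 33.

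Secreted factors associated with senescence were mixed as well. Of 31 measured, 2 were at least 2-fold higher, against 0.317% of all genes, and 4 lower, against 1% (median 0.08). Beside Igfbp2, the higher gene was Tnfrsf11b, which encodes the decoy receptor osteoprotegerin and was named after its values were seen, at 114 CPM on day 36 against 55.3 CPM on day 33. Beside Igfbp3, the lower genes were Mmp3, Icam1 and Angptl4. Mmp3, the matrix protease stromelysin, was at 1.36 CPM on day 36 and 6.6 CPM on day 33. The adhesion molecule gene Icam1 was at 4.77 CPM on day 36 and 11.3 CPM on day 33. Angptl4, an inhibitor of lipoprotein lipase, was at 5.37 CPM on day 36 and 11.5 CPM on day 33. Mmp3 and Icam1 reached 5 CPM only through day 33. Taken without that minimum, 39 list members had at least 3 counts, of which 3 were at least 2-fold higher and 6 lower. Il6 had 190 counts on day 36 and 166 on day 33, 4.38 and 3.6 CPM. The urokinase receptor gene Plaur was at 118 CPM on day 36 against 74.9 CPM on day 33. Of 27 measured metalloproteinases and inhibitors 2 were lower, against 1% of all genes, and 0 higher. They were Mmp3 and Adam8, a protease common in leukocytes, with Adam8 at 5.35 CPM on day 36 and 19.9 CPM on day 33. Mmp2 was at 573 CPM on day 36 against 404 CPM on day 33 and Timp1 at 418 CPM on day 36 against 427 CPM on day 33. Of 17 NF-kB subunits and feedback genes Icam1 was the 1 past 2-fold, against 1.32% of all genes.

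Among genes of other mesenchymal fates a few were lower. Of 13 measured adipocyte and lipid genes 2 were lower, against 1% of all genes. They were Angptl4 and Apoe, a lipid carrier that macrophages also make, with Apoe at 4.72 CPM on day 36 and 17.3 CPM on day 33. Of 8 measured cartilage and bone genes 2 were lower, against 1% of all genes. The cartilage proteoglycan Acan was at 1.04 CPM on day 36 and 5.49 CPM on day 33. The joint lubricant Prg4 was at 2.26 CPM on day 36 and 5.69 CPM on day 33. Acan, Prg4 and Apoe reached 5 CPM only through day 33. Taken without that minimum, 17 cartilage and bone genes had at least 3 counts, of which 4 were at least 2-fold lower and 2 higher. Of 21 such adipocyte and lipid genes, 4 were lower and 0 higher. The part of the macrophage markers, 31 of 32 lower, in the levels of Apoe and Adam8 was not tested.

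Lists without any member past 2-fold covered basic machinery of the cells. They included NRF2 and antioxidant genes (0 of 33, median 0.06), cholesterol and fatty acid synthesis (0 of 35, median -0.11), glycolysis and hypoxia genes (0 of 34, median 0.00), cytosolic ribosomal protein genes (0 of 36 measured of 80 in the table, median 0.00) and metallothionein and zinc genes (0 of 8, median -0.11). Class I antigen presentation genes also had none (0 of 12, median -0.12). The 4 measured proliferin genes, which are near-identical copies, were all above 0 by 0.35 to 0.40. Nor did any measured skeletal muscle gene (0 of 4), epithelial (0 of 7), endothelial (0 of 3) or neural and glial marker (0 of 5), nuclear-retained long RNA (0 of 8) or sex-linked gene (0 of 4) differ 2-fold. Y-linked Ddx3y was at 167 CPM on day 36 against 152 CPM on day 33 and Uty at 30.1 CPM on day 36 against 32.5 CPM on day 33.

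Other genes named by rule belonged to none of these lists. Myct1, a gene best known from blood vessel cells, had the largest higher difference, at 18.1 CPM on day 36 and 1.43 CPM on day 33, 12.7-fold higher (counting interval 9.84 to 16.5). P2ry14, a receptor for UDP-sugars, was at 5.78 CPM on day 36 and 0.651 CPM on day 33, and Tmtc1, which adds mannose to cadherins, at 42.8 CPM on day 36 and 10.3 CPM on day 33. Ano1, a calcium-activated chloride channel, was at 45.1 CPM on day 36 and 16.6 CPM on day 33. Selp, the adhesion molecule P-selectin, was at 5.12 CPM on day 36 against 1.76 CPM on day 33, Apob, the core protein of lipoproteins, at 6.31 CPM on day 36 against 2.3 CPM on day 33, and the adhesion receptor gene Adgrg1 at 5.62 CPM on day 36 against 2.08 CPM on day 33. Apol8 was at 7.3 CPM on day 36 against 1.82 CPM on day 33, Klhl30 at 6.11 CPM on day 36 against 2.11 CPM on day 33 and the ubiquitin ligase gene Hecw1 at 8.46 CPM on day 36 against 3.15 CPM on day 33. Plac8 was the most abundant of this set, at 118 CPM on day 36 and 46.8 CPM on day 33, 2.52-fold higher (counting interval 2.39 to 2.65). On the lower side, Agtr2 on the X chromosome, the angiotensin II receptor of embryonic mesenchyme, was at 2.28 CPM on day 36 and 19.1 CPM on day 33, 8.38-fold lower (counting interval 6.8 to 10.4). Coch, which encodes the secreted protein cochlin, was at 6.31 CPM on day 36 and 37.8 CPM on day 33, and Cacna2d3, a calcium channel subunit, at 0.899 CPM on day 36 and 5.45 CPM on day 33.

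The same days in KO cells share no library with the WT pair and give a second look at these genes. KO day 36 against KO day 33 had 113 genes at least 2-fold higher (0.968%) and 290 lower (2.49%) of 11670. Of the 117 genes lower in WT, 70 were also at least 2-fold lower in KO, 4 were at least 2-fold higher there, and the median KO difference was -1.65. Among the 69 of them that reached 5 CPM in KO, 39 were lower 2-fold and 2 higher. Of the 37 genes higher in WT, 3 were at least 2-fold higher in KO and 10 at least 2-fold lower, with a median of -0.19. The lower genes of WT therefore exceeded the KO background in the same direction. The higher genes exceeded the KO shares of 0.968% and 2.49% in both directions, with more of them lower than higher. Of these 37 genes 15 had the same sign in KO. Among the 29 of them that reached 5 CPM in KO, 2 were at least 2-fold higher and 8 lower. Over all 11310 genes at 5 CPM in both genotypes, the WT and KO differences had a Pearson r of 0.14 and a Spearman rho of -0.04, given as a description across genes of 4 libraries. Lyz2 was at 0.073 CPM on day 36 and 28.4 CPM on day 33 in KO, and C1qa at 0.0365 CPM on day 36 and 3.88 CPM on day 33. H19 was at 86.4 CPM on KO day 36 and 391 CPM on KO day 33, and Lama4 at 11.2 and 70.2 CPM on these days. Dcn went the other way in KO, with 12.5 CPM on day 36 and 7.64 CPM on day 33. In KO, Tmtc1 was at 3.47 CPM on day 36 and 79.1 CPM on day 33, and Foxf1 at 1.61 CPM on day 36 and 11.1 CPM on day 33, both lower on day 36 where WT was higher.

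**Figure D5:**
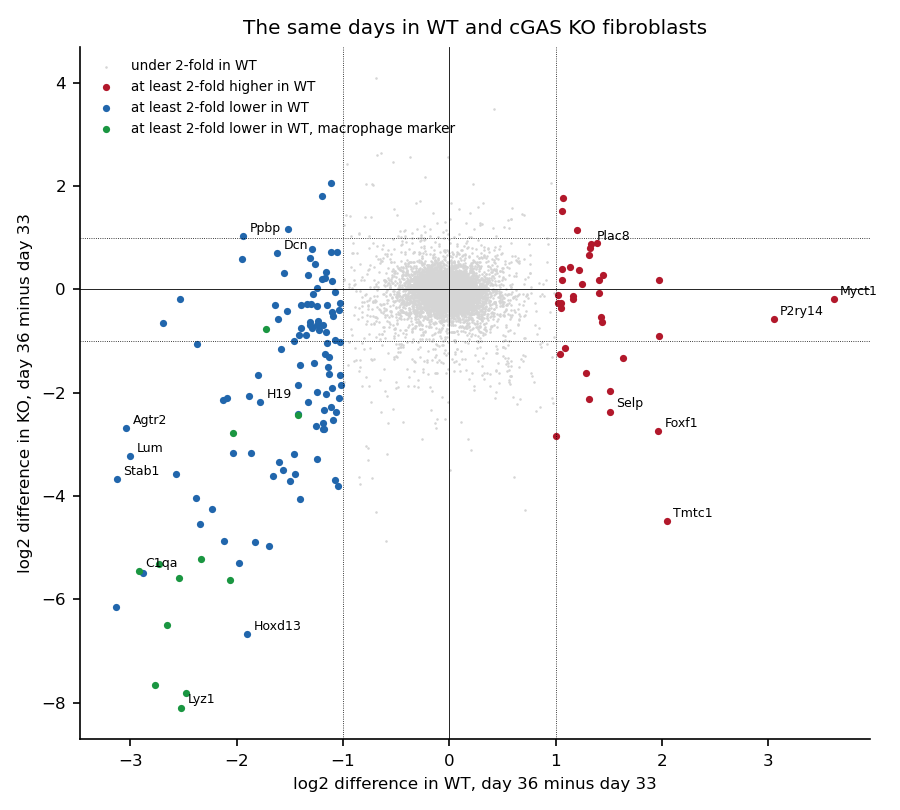
Log2 difference of day 36 minus day 33 in WT (horizontal) and in KO (vertical); each point is 1 gene, grey points are under 2-fold in WT, and coloured points are the 37 genes higher and 117 genes lower in WT with macrophage markers in green. Most lower genes of WT lie below 0 in KO, while Tmtc1, Foxf1 and Selp lie to the right and below.

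The test that these libraries allow treats genotype and day as separate terms over all 6 libraries and asks for a day 36 against day 33 difference common to both genotypes. By edgeR's quasi-likelihood test with Benjamini-Hochberg adjustment 0 of 17779 genes passed an adjusted p of 0.05, and 558 had an unadjusted p below 0.05. DESeq2 called 40 genes in the same model, 13 higher and 27 lower (0.225%). Of these 40, 20 were among the 117 genes lower in WT, 5 among the 37 higher, and 12 on the macrophage list. The WT libraries of both days enter this fit, so that overlap is not independent of the WT differences. Stab1 had a DESeq2 log2 difference of -3.40 ± 0.45 (SE, adjusted p = 7.95e-10 by DESeq2, adjusted p = 0.987 by edgeR), and Coch -3.17 ± 0.50 (adjusted p = 2.93e-06 by DESeq2, adjusted p = 1 by edgeR). Acan and Adam8 were also called by DESeq2. The fit over all 6 libraries leaves 2 residual degrees of freedom. The edgeR result changed without the WT day 33 library. Day 33 was then held by KO alone, so that fit cannot speak for WT day 36 against WT day 33.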

How the data were processed

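The deposited gene table gives estimated counts per gene, as the authors made them. Per the submitters' processing notes, Bowtie2 2.2.1, limma 3.18.13 and the build mm10 were used, with no role stated. Which program counted the reads, on what annotation and with which strand option, is not given in the sources used here. The table's 24 RPKM columns and a transcript table were not used. The 4 columns of each genotype and day, which agreed within sampling noise, were rounded and summed to 6 libraries, since the columns may be 1 library. CPM used TMM-scaled totals (edgeR 4.0.16, R 4.3.3), and differences used a prior count of 2. Day 36 against day 33 within WT had 1 library a side and no test. The test over both genotypes used edgeR's quasi-likelihood fit, with DESeq2 1.42.0 as an alternative. Both fits and the counting interval were tested on simulated data. With the larger of the simulated spreads between libraries, DESeq2 made more false calls than its threshold allows. Most genes past 2-fold between single libraries were then ones simulated without a change. That spread was a chosen setting and was not estimated from these libraries. It therefore gives no such share for the genes past 2-fold here. Other scalings, minimums, folds, prior counts and left-out replicates were tried. Genes named by rule were the 15 largest differences each way at 5 CPM or more without predicted names, up to 4 members of each list past 2-fold, a fixed set of senescence and fibroblast genes, and the 3 genes nearest each side of the minimum. The 46 lists named 1357 genes, of which 1342 matched the table. The members and lists were chosen with earlier results of these data known. Promoter windows come from RefSeq (GRCm38.p6). Values of some list members are not reported here.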

Additional observations from a re-analysis of the deposited data

Results flagged for a closer look

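In 7 of the genes named by rule the difference of day 36 minus day 33 was past 2-fold in both genotypes but in opposite directions. Each value compares 1 library with 1 library, and the difference between the genotypes was not tested. Tmtc1 was at -4.49 in KO (95 counts on day 36 and 2629 on day 33) and at 2.04 in WT on the log2 scale. Foxf1 was at -2.74 in KO (44 counts on day 36 and 368 on day 33) and at 1.96 in WT. Selp was at -2.37 in KO (94 and 596 counts on these days) and at 1.51 in WT. Klhl30 was at -1.97 in KO (29 and 143 counts) and at 1.51 in WT. Pax9 was at -1.34 in KO (97 and 300 counts) and at 1.63 in WT. Tgfb2 was at -1.14 in KO (722 and 1933 counts) and at 1.08 in WT. Ppbp went the opposite way, at 1.04 in KO (343 counts on day 36 and 202 on day 33) and at -1.94 in WT.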

How the results depend on the processing

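The counts followed the level minimum and the fold. Against 37 genes higher and 117 lower, 315 and 878 were found over any gene with a count, 17 and 48 at 20 CPM or more, 156 and 352 at 1.5-fold, and 7 and 42 at 3-fold. Members of any list past 2-fold came to 18 higher and 101 lower over any gene with a count, and to 5 and 19 at 20 CPM. Fewer or more genes enter by construction. Library totals without TMM gave 32 higher and 126 lower, with the median over all genes at -0.05, and median-ratio size factors gave 37 and 117. Leaving out the columns of replicate 1, 2, 3 or 4 gave 35 to 41 higher and 117 to 124 lower. Without the macrophage markers 37 and 105 genes were past 2-fold, and without the mitochondrially encoded genes 37 and 120, both alternatives chosen after seeing the data. No list median crossed 2-fold under any scaling, minimum, prior count or left-out replicate, though up to 5 medians a setting changed sign. Most of these lay within 0.03 of 0, but lists with few measured genes moved more. Skeletal muscle genes had a median of 0.41, and of -0.16 over any gene with a count. Endothelial markers had 0.29, against -0.08 over any gene with a count and -0.13 at 20 CPM, and neural and glial markers -0.46, against 0.03 at 20 CPM. Of 88 genes named by rule, Angptl4 alone lost 2-fold, without replicate 3. Run as separate libraries, the 8 columns gave 37 and 117 genes in edgeR both with the replicate number as a block and without it. These columns hold technical spread only, so that fit says nothing about cultures. In KO, library totals alone gave 148 higher and 254 lower, against 113 and 290. Over both genotypes edgeR called 0 genes, DESeq2 called 40, and leaving out 1 library at a time edgeR called 0 to 56, the 56 without WT day 33. The cause was not tested. Genes with few counts are limited by depth, and with 1 library a day no difference has a replicate check.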

Other observations

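Some further genes past 2-fold lay outside every list and were picked after their values were seen. Among signalling genes, Il1rl1, the receptor for interleukin 33, was at 242 CPM on day 36 and 592 CPM on day 33, Il1rn, which blocks the interleukin 1 receptor, at 30.2 CPM on day 36 and 68.9 CPM on day 33, and S1pr3, a receptor for sphingosine 1-phosphate, at 114 CPM on day 36 and 284 CPM on day 33. Slit3, a secreted guidance cue, was at 194 CPM on day 36 and 427 CPM on day 33. Gas1, a membrane protein that aids Hedgehog signalling, was at 14 CPM on day 36 and 54.1 CPM on day 33, and Penk, the enkephalin precursor, at 5.62 CPM on day 36 and 29.6 CPM on day 33. All 6 were lower on day 36. In KO, Il1rl1 was at 876 CPM on day 36 and 509 CPM on day 33, a difference in the other direction, while Il1rn was at 22.8 and 149.8 CPM on these days. Higher in WT were Eno3, a glycolytic enolase of muscle, at 120 CPM on day 36 and 57.5 CPM on day 33, and Epha4, an ephrin receptor, at 94 CPM on day 36 and 46.2 CPM on day 33.

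Of the 154 genes, some lay within 200 kb of another. Besides the clusters described in the report, Myct1 and Vip on chromosome 10 were both higher (3.61 and 1.31), Lmx1b and C130021I20Rik on chromosome 2 were both lower (-1.66 and -1.98), and P2ry14 and Igsf10 on chromosome 3 lay on opposite sides (3.05 and -1.02).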
